A study of Mus musculus with 8 samples.

Results

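The genes described here are 10 genes of fatty acid synthesis and desaturation, *Scd1*, *Scd2*, *Srebf1*, *Fasn*, *Acaca*, *Acly*, *Elovl6*, *Fads1*, *Fads2* and *Acss2*, out of 54838 genes in the count tables. They were picked by name after their fold changes between IOX5 and DMSO had been seen in these samples. Their values and calls in that comparison are therefore given as a description and carry no test. The same holds for fits that reuse these samples with some left out or with other settings. All 10 passed the filter on low counts that retained 12405 genes.

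Cells make saturated fatty acids from cytosolic acetyl-CoA. *Acly* cleaves citrate to acetyl-CoA and *Acss2* makes it from acetate, *Acaca* carboxylates it to malonyl-CoA, and *Fasn* builds palmitate from both. *Elovl6* lengthens palmitate to stearate, the stearoyl-CoA desaturases *Scd1* and *Scd2* introduce a double bond to give monounsaturated fatty acids, and *Fads1* and *Fads2* desaturate polyunsaturated fatty acids. *Srebf1* encodes SREBP-1, the transcription factor that drives most of these genes. It is held in the endoplasmic reticulum by Scap and the Insig proteins, and its own transcription is raised by the oxysterol receptors LXRα and LXRβ.

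RNA-seq was performed on bone marrow cells of *iMLL-AF9* mice, which carry a doxycycline-inducible *MLL-AF9* fusion oncogene on the C57BL/6 background. The labels name the cells leukaemic stem cells of WT genotype, the methods call them leukemic and the series text preleukaemic. There were 4 samples treated with IOX5, a selective inhibitor of the HIF prolyl hydroxylases, and 4 with the vehicle DMSO, numbered 1 to 4 in each group, all with the same fusion allele. The dose and duration for these samples and what their numbers stand for were not given in the sources used here, so p-values measure only the spread between these samples, which may be technical. The depth, as reads assigned to genes, was 12343770 to 14116054 per DMSO sample and 11351507 to 12708888 per IOX5 sample. The cells expressed *Mpo*, *Kit*, *Hoxa9* and *Meis1*, and 10 of 10 genes of the leukemic myeloid list passed the filter. Genes that define fat cells, a classical site of *Scd1* expression, were near 0, with 0 of 7 tested and a summed level between 0.311 and 0.703 CPM (the count scaled to library size with TMM factors) in the 8 samples.

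Across the 10 genes, 9 had a lower level in IOX5 than in DMSO in all 4 pairs of samples with the same number, and *Acss2* had a higher level in all 4. The summed level of the 10 genes was 4438 ± 380 CPM under DMSO and 3154 ± 350 CPM under IOX5 (SD, n = 4 each). It ran from 3878 to 4722 CPM in the controls and from 2713 to 3517 CPM in the treated samples. By edgeR's quasi-likelihood test, 3 of the 10 genes (*Scd1*, *Scd2* and *Srebf1*) were called lower at an adjusted p under 0.05 and 0 higher, where 1.25% of all genes tested were called lower and 0.774% higher. With the replicate number as a block, 8 of 10 were called lower, all but *Acly* and *Acss2*, where 9.43% of all genes were called lower and 11.2% higher. Every IOX5 sample was below every DMSO sample for 5 of the 10 genes (*Scd1*, *Scd2*, *Srebf1*, *Fasn* and *Acaca*), and for 8.3% of all genes tested. The median log2 fold change was -0.38 over the 10 genes and 0.02 over all genes. Because the genes were chosen on this contrast, nothing is read from these counts. The share of reads that could not be aligned also separated the groups, at 2.98% to 3.28% in DMSO and 3.38% to 4.86% in IOX5, with IOX5 replicate 2 the highest, and its part in these values was not tested. In bulk RNA, fewer cells of a type and less RNA per cell cannot be told apart.

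**Figure D1:**
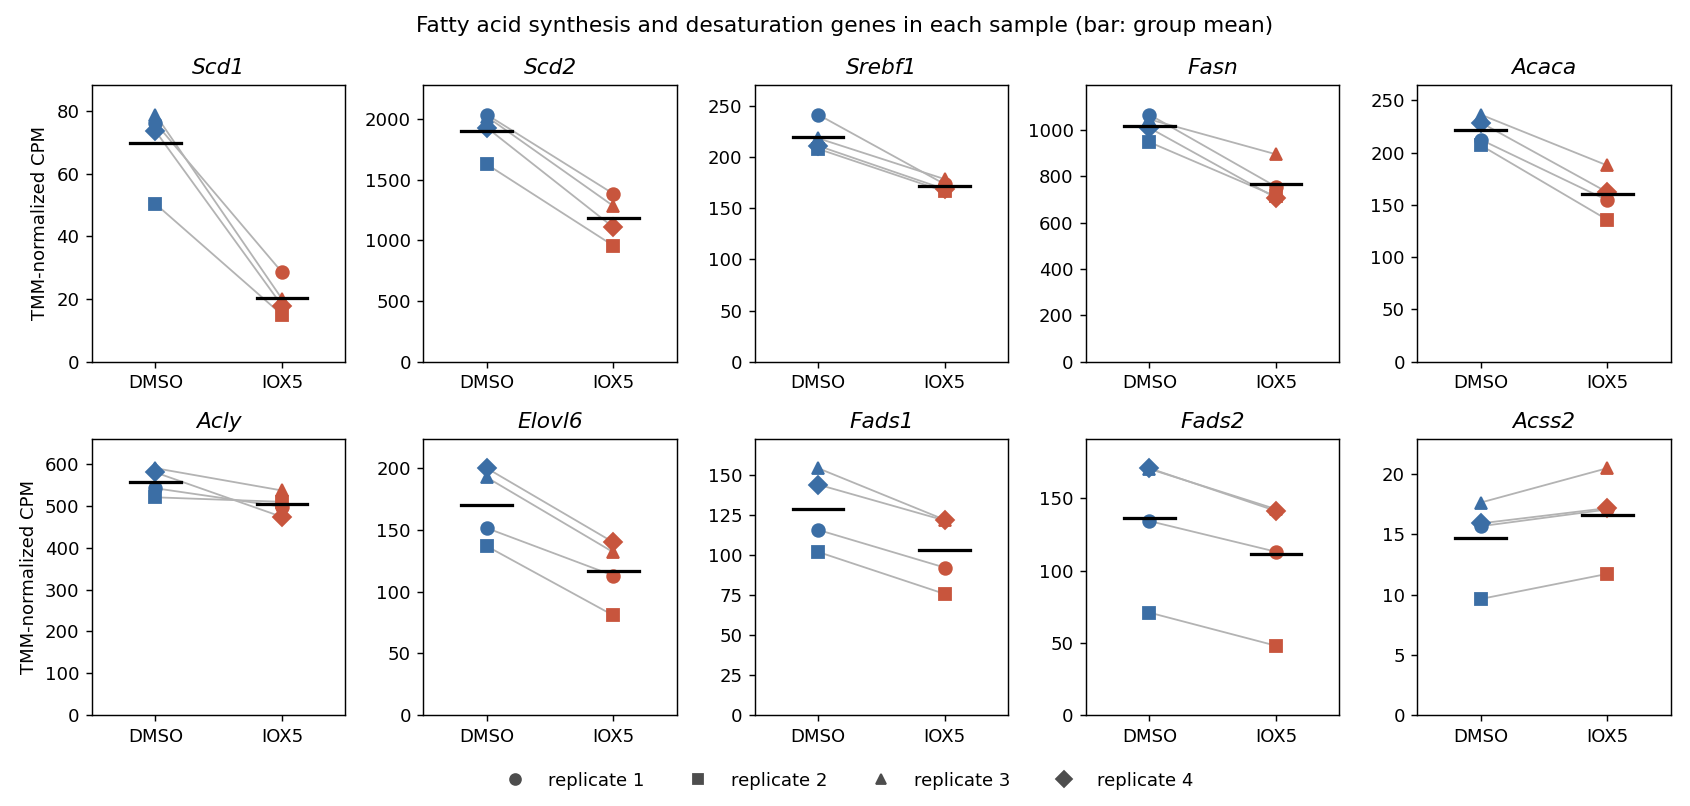
Level of each of the 10 genes in every sample, as TMM-normalized CPM on linear axes that start at 0, for DMSO (blue) and IOX5 (red). Symbols mark replicate numbers, grey lines join samples with the same number and black bars are group means; the grey lines of *Scd1* drop from 50.4–78.9 CPM to 15.01–28.6 CPM, and those of *Acss2* slope slightly upward.

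The desaturase *Scd1* (ENSMUSG00000037071; GRCm38 chromosome 19, 44394455 to 44407879, minus strand) had 76.2, 50.4, 78.9 and 73.7 CPM in DMSO replicates 1 to 4 and 28.6, 15.01, 20.1 and 18.0 CPM in IOX5 replicates 1 to 4. The groups were far apart, and the highest IOX5 sample was well below the lowest DMSO sample. The mean went from 69.8 ± 13.1 to 20.4 ± 5.84 CPM (SD, n = 4 each), which is 3.42-fold lower. The log2 fold change of -1.77 ± 0.21 (SE) was the lowest of the 12405 genes tested. It was -1.41, -1.75, -1.97 and -2.04 in the pairs numbered 1 to 4, and between -1.98 and -1.65 when any 1 sample was left out. The gene was called in 4 of these 8 reduced fits, and not without DMSO replicate 1, 3 or 4 or without IOX5 replicate 3. Since the gene was chosen on this contrast, these calls only describe the fits. *Scd1* was covered by 169 to 1080 reads per sample.

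Its neighbour *Scd2* (ENSMUSG00000025203; chromosome 19, 44293674 to 44306864, plus strand), the desaturase isoform that is widely expressed outside liver and fat, had 2035, 1626, 2019 and 1928 CPM in DMSO and 1383, 956, 1283 and 1107 CPM in IOX5. These groups did not overlap either. The mean went from 1902 ± 190 to 1182 ± 189 CPM (SD, n = 4 each), 1.61-fold lower, with a log2 fold change of -0.69 ± 0.12 (SE). It was called in 3 of the 8 fits that left out 1 sample, those without IOX5 replicate 1, 2 or 4.

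Both desaturases were lower, and *Scd1* by the larger factor. Per exon length, *Scd2* stood 24.8 ± 2.76 times above *Scd1* in DMSO and 53.2 ± 6.64 times above it in IOX5 (ratio of RPKM, which is CPM per kilobase of exon; SD, n = 4). The ratio was 22.9 to 28.9 in DMSO and 43.3 to 57.2 in IOX5. *Scd1* therefore made up 3.91% ± 0.381 of the summed RPKM of both genes in DMSO and 1.87% ± 0.259 in IOX5 (SD, n = 4), and the sum itself was 362 ± 37.4 RPKM in DMSO and 221 ± 35.7 RPKM in IOX5. The mouse paralogs *Scd3* and *Scd4* were near absent, with 0.440 and 0.457 CPM in DMSO and 0.270 and 0.251 CPM in IOX5, and were not tested. Of the 4888 distinct 50-base words in the *Scd1* transcripts, 145 also occur in *Scd2*, and 4.56% occur in any other gene.

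*Srebf1* (ENSMUSG00000020538; chromosome 11, 60199089 to 60222581, minus strand) had 241.7, 208.2, 218.6 and 211.2 CPM in DMSO and 173.7, 166.6, 178.6 and 168.8 CPM in IOX5. The spread was small in both groups and they did not overlap. The mean was 219.9 ± 15.2 CPM in DMSO and 171.9 ± 5.36 CPM in IOX5 (SD, n = 4 each), 1.28-fold lower, with a log2 fold change of -0.36 ± 0.06 (SE). It was called in 1 of the 8 fits that left out 1 sample, the fit without IOX5 replicate 4. The counts sum over all transcripts of the gene, so the SREBP-1a and SREBP-1c forms, which start at different first exons, were not told apart. An exon of *Rai1* on the opposite strand overlaps 109 bases of *Srebf1* exons, and the strand setting of the counting was not given in the sources used here. The related factor *Srebf2*, which mainly drives cholesterol synthesis, had 389 ± 18.4 CPM in DMSO and 352 ± 29.2 CPM in IOX5 (log2 fold change -0.15, adjusted p = 0.296, edgeR). The ratio of *Srebf1* to *Srebf2* in CPM was 0.566 ± 0.0476 in DMSO and 0.491 ± 0.0384 in IOX5 (SD, n = 4), with ranges of 0.521 to 0.631 and 0.459 to 0.545 that overlapped.

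The 250 bases before the transcript start are shown for the regulator *Srebf1* and its target *Fasn*, with the box CCAAT, the NF-Y site that accompanies SREBP sites in many sterol-regulated promoters, in capitals (either strand). The sequences are from RefSeq on GRCm38.p6, 5′ to 3′ on the minus strand of chromosome 11, at chr11:60222582-60222831 and chr11:120824548-120824797.
Srebf1: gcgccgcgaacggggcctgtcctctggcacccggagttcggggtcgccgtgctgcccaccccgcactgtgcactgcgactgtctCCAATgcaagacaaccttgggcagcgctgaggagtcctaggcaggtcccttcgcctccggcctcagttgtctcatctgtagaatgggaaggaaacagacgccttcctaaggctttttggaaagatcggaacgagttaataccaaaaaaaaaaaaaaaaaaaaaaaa
Fasn: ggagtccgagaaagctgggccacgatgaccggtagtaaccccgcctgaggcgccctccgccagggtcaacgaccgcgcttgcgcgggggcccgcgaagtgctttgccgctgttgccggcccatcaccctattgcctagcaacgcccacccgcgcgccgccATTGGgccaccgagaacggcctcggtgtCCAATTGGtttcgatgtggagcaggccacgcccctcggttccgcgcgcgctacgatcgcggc
RefSeq windows were at hand for 7 of the 10 genes, 9 windows in all, and not for *Scd1*, *Scd2* and *Fads1*. *Fasn* holds CCAAT 90, 62 and 59 bases before the start, the last pair sharing bases, and *Srebf1* once 166 bases before this start, the most upstream of its 3. Another *Srebf1* window, not shown, holds CCAAT 30 bases before its start. The *Acaca* window, at 84195188 to 84195437, lies inside the annotated gene, which begins at 84129672. Which of these starts are used in these cells was not tested. CCAAT was found in 4 of the 9 windows, from 3 genes, *Srebf1*, *Fasn* and *Acss2*, and in 33.9% of 32851 promoters of the same length. The sterol regulatory element TCACNCCAC, searched on both strands, was in 0 of the 9 windows and in 1.05% of all promoters. The E-box CACGTG, which SREBP-1 and other factors bind, was in 0 of 9 and in 6.02% of all promoters. The HIF core ACGTG was in 1 of 9 windows (*Acly*) and in 16.6% of all promoters, and GCGTG in 2 of 9 (*Fasn* and *Acss2*) and in 28.2%. CACGTG contains ACGTG. These are matches of letters in this window, not sites of binding.

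Downstream of acetyl-CoA, *Fasn* (ENSMUSG00000025153; chromosome 11, 120805846 to 120824547) had 1067, 948, 1046 and 1010 CPM in DMSO and 756, 714, 896 and 707 CPM in IOX5, with no overlap. The mean was 1018 ± 52.2 CPM in DMSO and 768 ± 87.6 CPM in IOX5 (SD, n = 4 each), 1.32-fold lower, with a log2 fold change of -0.41 ± 0.09 (SE). *Acaca* (ENSMUSG00000020532; chromosome 11, 84129672 to 84401651) had 212.3, 207.0, 236.3 and 228.7 CPM in DMSO and 154.4, 135.8, 187.7 and 162.1 CPM in IOX5. All 4 treated samples were below the lowest control. Its mean was 221.1 ± 13.7 CPM in DMSO and 160.0 ± 21.5 CPM in IOX5, 1.38-fold lower, with a log2 fold change of -0.47 ± 0.10 (SE). Both genes lay just outside the threshold of the fit without the block and inside it with the block, and *Acaca* was also called without the block under a filter of at least 10 counts in every sample. Of the 50-base words in the annotated *Acaca* transcripts, 30.4% also occur in transcripts of other genes, 335 in number, against 0% for *Fasn* and *Acly*. The isoform *Acacb*, whose product restrains fatty acid oxidation, had 2.48 CPM in DMSO and 2.51 CPM in IOX5 (adjusted p = 0.993, edgeR).

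At the entry of the pathway the differences were small. *Acly* (ENSMUSG00000020917; chromosome 11, 100476353 to 100528000) had 541.5, 519.9, 589.4 and 579.2 CPM in DMSO and 497.5, 509.2, 536.2 and 473.3 CPM in IOX5. The groups overlapped, since the IOX5 replicate 3 value was above DMSO replicate 2, and the log2 fold change was -0.15 ± 0.06 (SE). *Acss2* (ENSMUSG00000027605; chromosome 2, 155517948 to 155585724) was the gene that went the other way, with 15.7, 9.64, 17.6 and 15.9 CPM in DMSO and 17.1, 11.7, 20.5 and 17.2 CPM in IOX5. Its log2 fold change was 0.18 ± 0.22 (SE), and 0.02 without DMSO replicate 2 and 0.31 without IOX5 replicate 2, although each IOX5 sample was above the DMSO sample of the same number by 0.11 to 0.28 on the log2 scale. Exons of *Gss*, *Ggt7* and *Acss2os* on the opposite strand overlap *Acss2* exons by 395, 197 and 335 bases.

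The elongase *Elovl6* (ENSMUSG00000041220; chromosome 3, 129532355 to 129638495) had 151.3, 136.7, 192.3 and 199.7 CPM in DMSO and 113.0, 80.8, 131.9 and 139.9 CPM in IOX5. The groups overlapped, but each number showed a lower IOX5 value, by 0.42 to 0.76 on the log2 scale. The log2 fold change was -0.55 ± 0.18 (SE) without the block and -0.56 ± 0.07 (SE) with it. The polyunsaturated desaturases had the same form. *Fads1* (ENSMUSG00000010663; chromosome 19, 10182888 to 10196877) had 115.6, 101.8, 154.0 and 143.8 CPM in DMSO and 92.1, 75.7, 121.9 and 121.4 CPM in IOX5. Its log2 fold change was -0.33 ± 0.18 (SE), with an SE of 0.06 under the block. Without the block it ranged from -0.42 without DMSO replicate 2 to -0.20 without IOX5 replicate 2. *Fads2* (ENSMUSG00000024665; chromosome 19, 10062765 to 10101746) was lowest in number 2 and had 134.3, 71.0, 170.3 and 170.8 CPM in DMSO and 113.1, 48.1, 142.5 and 141.3 CPM in IOX5. Its log2 fold change was -0.30 ± 0.36 (SE) without the block and -0.33 ± 0.07 (SE) with it, and without the block it ranged from -0.51 without DMSO replicate 2 to -0.05 without IOX5 replicate 2.

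**Figure D2:**
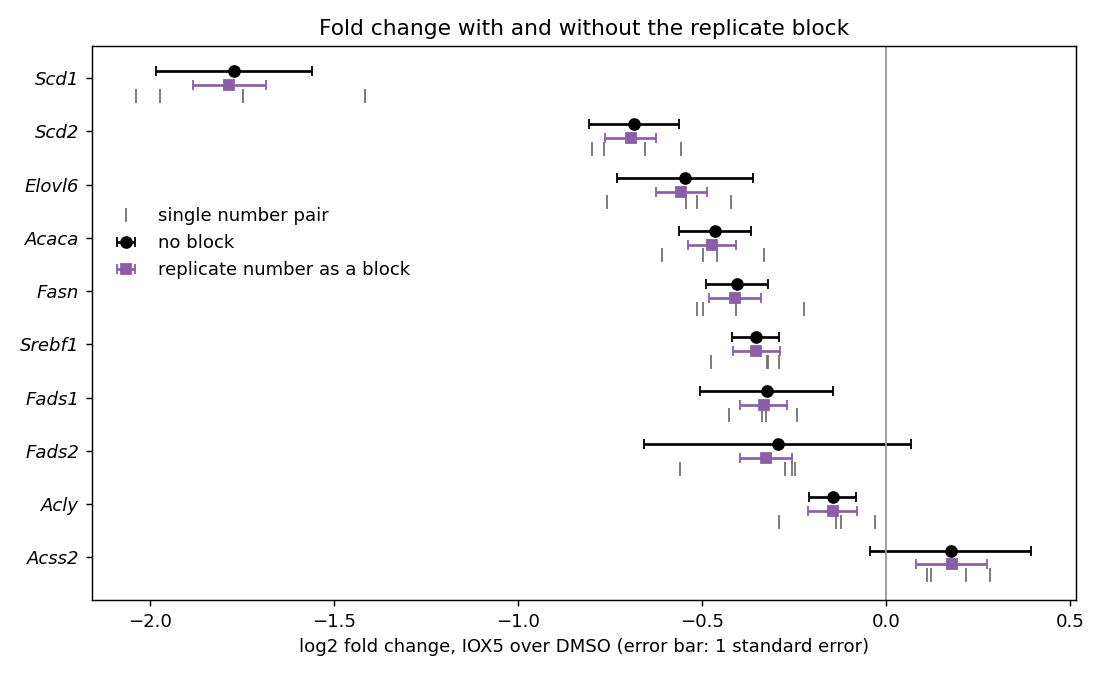
Log2 fold change of IOX5 over DMSO for each gene, with 1 standard error, from the edgeR fit without a block (black circles) and with the replicate number as a block (purple squares); grey ticks are the single pairs of samples with the same number. *Scd1* stands apart at -1.77, and the block narrows the error of *Fads2* from 0.36 to 0.07 while the estimates stay close.

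Levels between genes were compared per exon length. In DMSO the order was *Scd2* (348 RPKM), *Acly* (106), *Fasn* (93.0), *Fads2* (41.5), *Srebf1* (39.0), *Fads1* (26.8), *Elovl6* (26.4), *Scd1* (14.3), *Acaca* (12.9) and *Acss2* (1.45 RPKM). *Scd2*, *Acly* and *Fasn* did not overlap with their neighbours, although the lowest *Acly* sample (98.5 RPKM) was close to the highest *Fasn* sample (97.5 RPKM). *Fads2* ranged from 21.6 to 51.8 RPKM and overlapped with *Srebf1*, *Fads1* and *Elovl6*. *Scd1* (10.3 to 16.1 RPKM) overlapped with *Acaca* (12.1 to 13.8 RPKM) in DMSO, and in IOX5 *Scd1* (3.07 to 5.84 RPKM) was below *Acaca* (7.95 to 10.99 RPKM) in every sample. The other 8 genes kept their places in the order of means. The exon lengths of *Acss2* (10163 bases) and *Acaca* (17074 bases) count every annotated transcript, which lowers their RPKM.

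**Figure D3:**
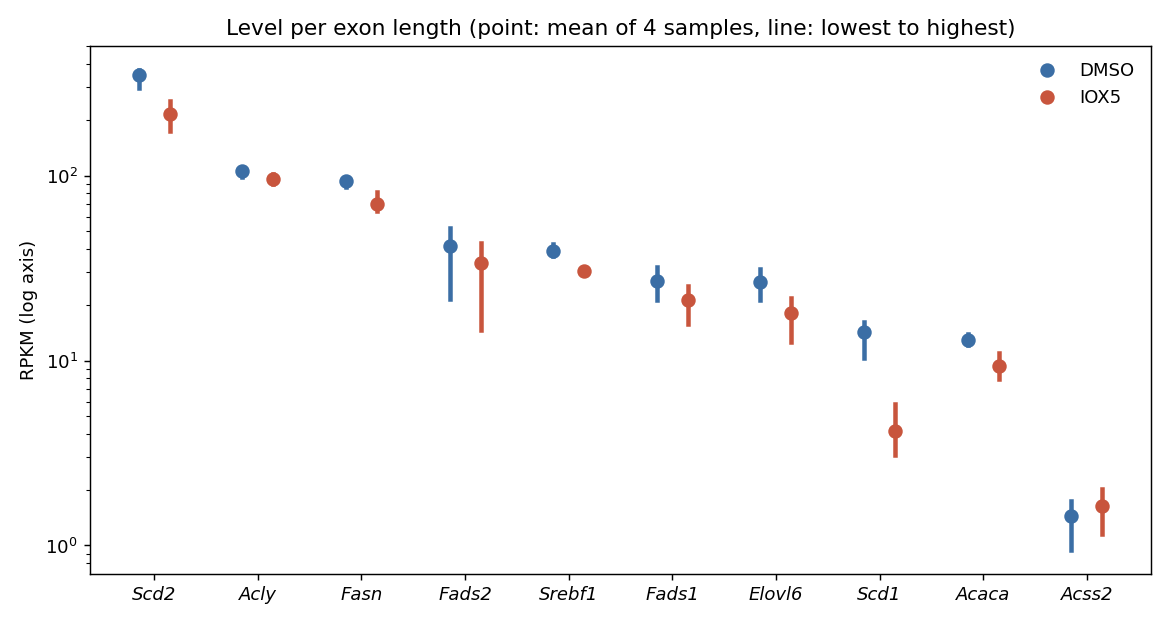
Level of each gene per exon length in RPKM on a log axis, with the mean of 4 samples (point) and the lowest to highest sample (line) for DMSO (blue) and IOX5 (red), ordered by the DMSO mean. *Scd2* is highest at 348 RPKM in DMSO, and *Scd1* moves from 14.3 to 4.17 RPKM, below *Acaca* at 9.37 RPKM.

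A second question is how these genes varied between the replicate numbers. The genes were chosen on their treatment differences in these same 8 samples, so the samples are not an independent set. By edgeR's quasi-likelihood F test of the number in the fit with treatment, 6 of the 10 genes differed between numbers at an adjusted p under 0.05. Of all genes, 22.5% did, a share not matched for level. In DMSO the 10 genes ranged from percentile 34.6 of level (*Acss2*, then *Scd1* at 69.8) to 99.9 (*Scd2*). Those that differed were *Fads2* (adjusted p = 7.92e-07), *Fads1* (adjusted p = 2.74e-04), *Elovl6* (adjusted p = 6.29e-04), *Acss2* (adjusted p = 0.00296), *Scd1* (adjusted p = 0.00726) and *Scd2* (adjusted p = 0.0191). *Acaca* (adjusted p = 0.0853), *Fasn* (0.273), *Srebf1* (0.583) and *Acly* (0.673) did not pass. Number 2 was the lowest DMSO sample for all 10 genes and the lowest IOX5 sample for 8, the exceptions being *Fasn* and *Acly*, whose lowest was number 4. *Fads2* in number 2 deviated by -0.97 from the group mean on the log2 scale, and by 0.44 and 0.43 in numbers 3 and 4. Without number 2 in either group, 3 genes passed (*Elovl6*, *Fads1* and *Fads2*), where 16.7% of all genes did.

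The ratio of *Fads2* to *Fads1*, which catalyse separate steps of the same route and are encoded side by side on chromosome 19, differed by number, with nearly equal group means of 1.52 ± 0.336 in DMSO and 1.53 ± 0.404 in IOX5 (SD, n = 4). In RPKM it was 1.70, 1.02, 1.62 and 1.73 in DMSO replicates 1 to 4 and 1.79, 0.929, 1.71 and 1.70 in IOX5 replicates 1 to 4. Number 2 was low in both groups. Markers of the leukemic cells also differed between numbers, for 10 of 10 genes of that list. *Mpo*, the myeloperoxidase of granulocyte precursors, had 1339, 984, 3380 and 3077 CPM in DMSO and 1565, 1141, 3882 and 3915 CPM in IOX5 (adjusted p between numbers = 2.21e-08, edgeR). *Kit*, the stem cell factor receptor, had 63.2, 44.0, 94.9 and 96.5 CPM in DMSO and 82.4, 65.9, 133.2 and 108.4 CPM in IOX5 (adjusted p between numbers = 1.70e-05, edgeR). Like *Fads1*, *Fads2* and *Elovl6*, both were lowest in number 2 and higher in numbers 3 and 4 than in number 1, in each group. *Cebpa*, a myeloid transcription factor, had the same order, and these 3 of the 10 markers were singled out after their values were seen. *Hoxa9*, *Hoxa10*, *Ptprc*, *Itgam*, *Fcgr3* and *Spi1* ran the other way and were highest in number 2 in both groups, and *Meis1* was highest in number 1. *Hoxa9* had 244, 293, 225 and 239 CPM in DMSO and 235, 274, 219.9 and 239 CPM in IOX5. Their part in the differences between numbers was not tested.

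**Figure D4:**
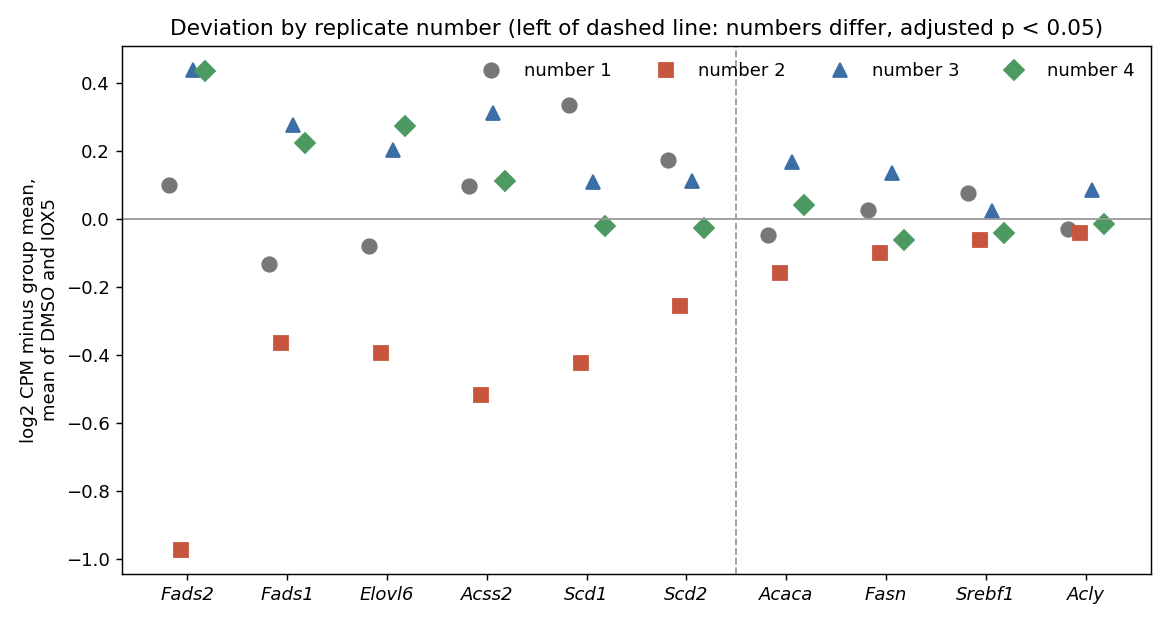
Deviation of each replicate number from its group mean, in log2 CPM averaged over DMSO and IOX5, for the 10 genes ordered by the test between numbers; genes left of the dashed line passed it. Number 2 (red squares) is the lowest of the 4 for all 10 genes in this average and reaches -0.97 for *Fads2*.

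The lists that follow were chosen with earlier results of these data known, so their adjusted p-values describe these samples. Their counts of calls stand against 0.774% of all genes called higher and 1.25% lower, and 11.2% higher and 9.43% lower with the block. Of 14 listed SREBP and LXR regulators, 13 were tested, 1 was called lower and 0 higher, and with the block 2 were lower and 1 higher. The called gene was *Insig1*, which retains SREBPs in the endoplasmic reticulum and is itself an SREBP target. It had 201.0, 175.2, 211.5 and 210.2 CPM in DMSO and 166.0, 142.5, 150.6 and 152.8 CPM in IOX5, without overlap, and fell by 0.38 on the log2 scale (adjusted p = 0.0469, edgeR). *Insig2*, its isoform, had 16.1 CPM in DMSO and 19.0 CPM in IOX5 (log2 fold change 0.24, adjusted p = 0.235), with each IOX5 sample above each DMSO sample. The cholesterol exporter *Abca1*, an LXR target, had a log2 fold change of -0.67 (adjusted p = 0.172, and 0.0183 with the block). The sterol exporter *Abcg1*, also an LXR target and named after its values were seen, went the other way and had a log2 fold change of 0.78 (adjusted p = 0.251, and 0.0281 with the block). *Scap*, the SREBP escort, had a log2 fold change of -0.06 (adjusted p = 0.599). Of the LXR genes, *Nr1h2* had 69.6 CPM in DMSO and 81.6 CPM in IOX5 (adjusted p = 0.267), and *Nr1h3* had 0.575 and 0.976 CPM and was not tested. *Mlxipl*, which encodes the glucose-responsive factor ChREBP, had 1.16 CPM in DMSO and 0.980 CPM in IOX5 (adjusted p = 0.856).

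Among 24 other genes of fatty acid synthesis and elongation, 18 were tested, 1 was called lower and 0 higher, and with the block, where 9.43% of all genes were lower and 11.2% higher, 2 were lower and 1 higher. *Mid1ip1*, whose product promotes assembly of active acetyl-CoA carboxylase filaments, went from 106 ± 3.98 to 82.7 ± 5.78 CPM (SD, n = 4 each) and fell by 0.36 on the log2 scale (adjusted p = 0.0385, edgeR). An antisense gene on the opposite strand overlaps 543 bases of its exons. *Hacd2*, a dehydratase of the elongation cycle, had a log2 fold change of 0.29 (adjusted p = 0.0755, and 0.0175 with the block), and *Mcat*, of mitochondrial fatty acid synthesis, -0.19 (adjusted p = 0.212). Of 26 genes of acyl-CoA synthesis and glycerolipid assembly, 22 were tested, 1 was called lower and 0 higher, against 5 lower and 1 higher with the block (9.43% and 11.2% of all genes). *Acsl4*, which activates arachidonate and similar polyunsaturated fatty acids, went from 102 ± 11.2 to 74.7 ± 3.28 CPM (SD, n = 4 each) and fell by 0.44 on the log2 scale (adjusted p = 0.0409, edgeR). *Dgat2*, of triglyceride synthesis, had a log2 fold change of -0.29 (adjusted p = 0.232, and 0.0343 with the block). *Lpcat1*, which remodels phospholipids, had -0.39 (adjusted p = 0.253, and 0.00691 with the block).

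The cholesterol arm of the SREBP targets had 22 of 23 tested genes with a negative log2 fold change, as had 5855 of all 12405 genes, and a median of -0.16, with 0 called in either direction by edgeR without the block and 8 lower with it, where 9.43% of all genes were lower. Without the block 7 of the 23 had an unadjusted p under 0.05, as had 2506 of all 12405 genes, and DESeq2 called 2 lower, as it did 544 of 11091 genes. *Hsd17b7*, a reductase of sterol synthesis, had a log2 fold change of -0.38 (adjusted p = 0.0584, and 0.00425 with the block), and *Lss*, the lanosterol synthase, -0.40 (adjusted p = 0.0663, and 0.00193 with the block). The summed level of this list was 3552 ± 415 CPM in DMSO and 3073 ± 167 CPM in IOX5 (SD, n = 4), and the ranges overlapped.

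Lists on the other side of fatty acid metabolism had positive medians. So did the list of acyl-CoA synthesis and glycerolipid assembly, at 0.05. The other genes of fatty acid synthesis and elongation had a median of -0.03 and the regulators -0.06. Of 22 genes of fatty acid oxidation, 19 were tested, 2 were called higher and none lower, with the block 3 higher and none lower, where 11.2% of all genes were higher. The log2 fold change was positive for 14 of the 19, as it was for 6550 of all 12405 genes, and its median was 0.12. *Cpt1a*, which commits fatty acids to the mitochondrion, had 74.9, 72.1, 71.6 and 71.4 CPM in DMSO and 103.3, 148.5, 118.6 and 93.2 CPM in IOX5. The control values were close together, and the treated values were all higher and spread out (log2 fold change 0.68, adjusted p = 0.0422, edgeR). The carnitine carrier *Slc25a20* rose from 18.4 ± 1.75 to 26.2 ± 2.39 CPM (SD, n = 4; log2 fold change 0.51, adjusted p = 0.0487, edgeR). *Etfdh*, which passes electrons from oxidation to the respiratory chain, had a log2 fold change of 0.29 (adjusted p = 0.0734, and 0.0129 with the block).

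Of 19 genes of lipid uptake and lipid droplets, 14 were tested, with a median of 0.30. Without the block 1 was called higher and 0 lower, where 0.774% of all genes were higher. With the block 5 were higher, where 11.2% of all genes were. DESeq2 called 4 higher and 0 lower, where it called 433 of 11091 genes higher. By edgeR without the block 6 had an unadjusted p under 0.05, as had 2506 of all 12405 genes. *Hilpda*, a HIF target that inhibits lipolysis at droplets, rose from 8.77 ± 0.461 to 12.7 ± 0.825 CPM (SD, n = 4; log2 fold change 0.53, adjusted p = 0.0469, edgeR). *Plin2*, the droplet coat protein, had 137.6, 132.7, 99.4 and 102.9 CPM in DMSO and 255.2, 523.2, 180.9 and 184.3 CPM in IOX5. All treated samples were above the controls, IOX5 replicate 2 by far the most (log2 fold change 1.27, adjusted p = 0.0807, and 2.89e-04 with the block). *Slc27a1*, a fatty acid transporter, had 16.6 ± 2.73 CPM in DMSO and 37.2 ± 19.0 CPM in IOX5 (adjusted p = 0.0846, and 0.00169 with the block). Of 5 genes linked to ferroptosis and lipid repair, 1 was called higher and none lower, and with the block 1 higher and 1 lower. *Gpx4*, which reduces lipid peroxides, rose from 140 ± 7.34 to 182 ± 13.1 CPM (SD, n = 4; log2 fold change 0.39, adjusted p = 0.0346, edgeR). *Dhodh*, of pyrimidine synthesis, had a log2 fold change of -0.31 (adjusted p = 0.398, and 0.0360 with the block) and *Slc3a2*, a chain of the cystine importer, -0.14 (adjusted p = 0.436). The 7 list genes called outside the 10 (*Insig1*, *Mid1ip1*, *Acsl4*, *Cpt1a*, *Slc25a20*, *Hilpda* and *Gpx4*) lay near the threshold, with adjusted p between 0.0346 and 0.0487 (edgeR). Leaving out 1 sample, *Cpt1a* was called in 2 of 8 fits (without IOX5 replicate 2 or 4), *Mid1ip1*, *Slc25a20* and *Gpx4* in 1 of 8, each without IOX5 replicate 4, and *Insig1*, *Acsl4* and *Hilpda* in 0 of 8. Their log2 fold changes stayed within -0.44 to -0.34 for *Insig1*, 0.51 to 0.58 for *Hilpda* and 0.33 to 0.42 for *Gpx4*. They ran from -0.40 to -0.31 for *Mid1ip1*, -0.49 to -0.38 for *Acsl4* and 0.46 to 0.56 for *Slc25a20*. For *Cpt1a* they ran from 0.54 without IOX5 replicate 2 to 0.77 without IOX5 replicate 4. With the block all 7 genes were called in each of the 4 fits that left out 1 number from both groups. These fits reuse samples in which the 7 genes were called, so they are not independent support.

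**Figure D5:**
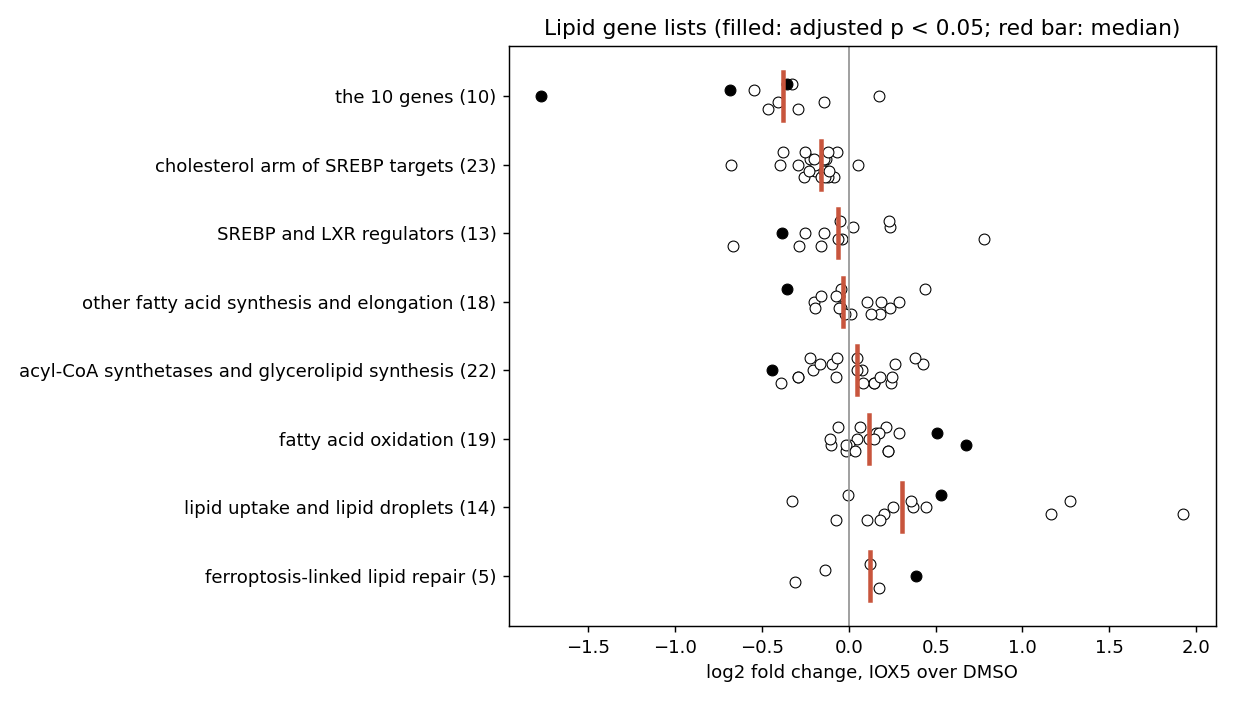
Log2 fold change of IOX5 over DMSO for every tested gene of the 10-gene group and of 7 further lipid lists (number of genes in parentheses); filled points passed an adjusted p under 0.05 in the edgeR fit without a block, and red bars are list medians. The medians run from -0.38 for the 10 genes and -0.16 for the cholesterol arm to 0.30 for lipid uptake and droplets.

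Lists of markers of other cells had no call in the fit without the block, and some of their genes were called higher with it, where 11.2% of all genes were. The 8 macrophage markers summed to 194.9, 206.4, 148.2 and 178.9 CPM in DMSO and 236.4, 501.2, 253.8 and 226.0 CPM in IOX5. The treated samples were all higher and IOX5 replicate 2 was the highest, as it was for *Plin2*, *Slc27a1*, *Cpt1a* and *Slc25a20*. By contrast, *Hilpda* and *Gpx4* were highest in IOX5 replicate 4 and *Etfdh* in IOX5 replicate 1. IOX5 replicate 2 also had the highest share of reads that could not be aligned (4.86%). Of the 6 macrophage markers that were tested, all had a positive log2 fold change (median 0.59). By edgeR 0 were called and 2 had an unadjusted p under 0.05, and both DESeq2 and the block called 2 higher, with the block *Adgre1* and *Mrc1*. Their most abundant gene was *Csf1r*, at 83.4 CPM in DMSO and 107 CPM in IOX5, while *C1qa* and *Marco* were at most 0.236 CPM on average in either group. The 6 mast cell and basophil markers, led by *Mcpt8*, were all called higher with the block, and without it 0 were called by edgeR or DESeq2 and 0 had an unadjusted p under 0.05. They summed to 148.7 to 557.7 CPM in DMSO and 181.1 to 903.7 CPM in IOX5. The 4 megakaryocyte markers, led by *Itga2b*, had 3 called higher with the block, 1 by DESeq2, and 2 with an unadjusted p under 0.05 by edgeR without the block, and the 6 erythroid markers, led by *Hbb-bt*, had 2, summing to between 5.83 and 43.2 CPM. Of 7 stromal and endothelial markers, led by *Pecam1*, 3 were tested and 1 was called higher with the block, and of 7 B and T lymphoid markers 0 were tested and 4 were at 0 in every sample. Of the 10 leukemic myeloid markers, 4 were called higher with the block (*Mpo*, *Kit*, *Itgam* and *Cebpa*), with 0 called and 0 at an unadjusted p under 0.05 without it. The part of these cells in the values of the 10 genes was not tested.

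The genes with a profile over the 8 samples most like that of *Scd1* were found by the root mean square difference of centred log2 CPM among 9883 genes with a mean of at least 5 CPM, where a flat profile would differ by 0.942. They were *Chac1* (0.473), which degrades glutathione, *Depdc1a* (0.580), *Gm42549* (0.585), *Kcnq1ot1* (0.588), the long noncoding RNA of an imprinted domain, *Knl1* (0.590), a kinetochore scaffold, and *Utp14b* (0.60). *Scd2* (0.565) was closer than all of these but *Chac1*, and among the other genes of the group *Elovl6* (0.677) and *Acaca* (0.711) were next. *Chac1* had 17.2 CPM in DMSO and 7.07 CPM in IOX5, a log2 fold change of -1.28, so its difference was smaller than that of *Scd1*. Exons of *Utp14b* share 244 bases with those of *Acsl3* on the same strand. Since the measure includes the difference between the groups, it mostly ranks genes that were much lower in IOX5.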

How the data were processed

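The deposited values are raw counts of reads per Ensembl gene in 8 samples. According to the methods and the submitters' processing notes, the authors made directional libraries from poly(A) RNA, trimmed reads with Cutadapt 1.18, mapped them to GRCm38 with HISAT2 2.2.1 and counted them with HTSeq 2.0.1, sample by sample. The annotation release and strand setting used for counting were not given in the sources used here. The last 5 lines of each table, reads assigned to no gene (20.6% to 22.6% per sample), were left out. GENCODE M21 named 54809 of 54838 genes.

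IOX5 was compared with DMSO in R 4.3.3 by edgeR 4.0.16 (filterByExpr, TMM, quasi-likelihood test, no block, Benjamini-Hochberg over 12405 genes, called at 0.05). Factors ran from 0.988 to 1.03. CPM values are TMM-normalized, log2 CPM used a prior count of 2, and RPKM used the summed exon length. Same-numbered samples deviated together from their group means (r = 0.758, 0.744, 0.732 and 0.636 for numbers 1 to 4), against at most 0.212 with another number for numbers 1 and 2 and 0.685 for numbers 3 and 4, which is above the value of number 4 itself. Every same-number value was over 0.1, so the fit with the number as a block is given where it changes a call or a count. Alternatives were DESeq2 1.42.0, RLE and upper-quartile factors, other count filters and each sample left out. The procedures were tested on simulated data. For the IOX5 comparison the simulated samples were independent, without differences between numbers. That test therefore does not check the fits where same-numbered samples deviate together, as they do here.

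The 10 genes and all lists were chosen with earlier results of these data known, and *Scd1* and *Scd2* also stand in a list the study drew from these samples. In each list outside the 10 genes, up to 3 genes with the smallest p were named (1 gene is not reported here), with a set of paralogs and regulators named in any case, the 6 genes most like *Scd1* and the top gene of each marker list. Genes named beyond this rule (*Mpo*, *Kit*, *Adgre1*, *Mrc1* and the like) were added after their values were seen. Counting error adds to the spread of low genes, and *Acss2* had 124 to 262 reads per sample. The SE of its log2 fold change also depended on the block, at 0.22 without it and 0.10 with it.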

Additional observations from a re-analysis of the deposited data

Results flagged for a closer look

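Of 84 groups of 4 samples examined for a sample far from the others, 1 stood out, and chance marks about 1 in 20. *Mcat*, of mitochondrial fatty acid synthesis, had 28.3 CPM in IOX5 replicate 4, against 24.2 to 24.5 CPM in the other IOX5 samples.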

How the results depend on the processing

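All 10 genes kept the direction of their fold change under every alternative run. They were chosen on this contrast in these samples, so this and their calls below are a description. Without a block 96 genes were called higher and 155 lower, 3 of the 10 genes lower, and 4 other list genes higher and 3 lower. With the replicate block the counts were 1394 and 1170, 8, and 12 and 18. With DESeq2 they were 433 and 544, 6, and 9 and 5. Without the low-count filter, 79 genes were called higher and 73 lower, 2 of the 10 genes lower (*Srebf1* lost its call), and 2 other list genes higher and 1 lower. A minimum of 10 counts in every sample gave 4 of the 10 genes lower, adding *Acaca*. Upper-quartile factors gave 101 higher and 108 lower, a more even split than the main one. Leaving out 1 sample gave 0 to 130 higher and 0 to 333 lower, 0 to 3 of the 10 genes lower, and 0 to 4 other list genes higher and 0 to 1 lower. All these counts were 0 when DMSO replicate 3, replicate 4 of DMSO or IOX5 replicate 3 was left out, where 1969, 1846 and 2111 genes had an unadjusted p under 0.05 by edgeR. The fits with the block that left out 1 number in both groups, chosen after seeing the data, called 8 of the 10 genes lower each time. Without number 1 they called 994 genes higher and 650 lower, with 11 other list genes higher and 11 lower. Without number 2 the counts were 1119 and 1016, with 13 and 18, without number 3 they were 642 and 403, with 8 and 5, and without number 4 they were 1355 and 1058, with 16 and 13. In the test between numbers, also with numbers left out after seeing the data, 2070 to 2728 genes and 3 to 7 of the 10 passed, the lowest without number 2. The causes of these differences between settings were not tested. Depth limits the genes near 1 CPM, such as *Mlxipl*, *Scd3* and *Scd4*.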
